A study of Mus musculus with 2 samples.

Results

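C-type lectin receptors are surface proteins through which myeloid cells recognise sugars and lipids of fungi and bacteria and material of damaged cells. The expression of 10 of their genes was examined in neutrophils given tumor exosomes: Clec4a1, Clec4a2, Clec4a3, Clec4b1, Clec4d, Clec4e, Clec4n, Clec5a, Clec7a and Clec12a. They were taken by symbol, and all 10 were found among the 35522 features of both expression tables. The set was chosen by receptor family with their RPKM values in these 2 libraries known, so the levels and ratios are a description, without a test.

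Neutrophils were sorted from the bone marrow of mice by their surface proteins, positive for the myeloid integrin CD11b, high for the neutrophil marker Ly-6G and low to negative for Ly-6C, and kept in RPMI-1640 with 10 ng/ml GM-CSF, a myeloid growth factor that both groups received. The control group was given PBS and the exosome group 20 ug/ml tumor exosomes, each for 3 days, and each group holds 1 library. The exosomes were vesicles pelleted by ultracentrifugation from medium that SDCSCs had conditioned. SDCSCs, or sphere-derived cancer stem cells, came from CT26, a mouse colon carcinoma line, cultured as spheres without serum. Per the study's methods, the mice were Balb/C animals a few weeks old, no altered allele is named, and a sort was accepted above a minimum purity. Pooling of marrow between animals is not described. Both groups therefore model isolated neutrophils in culture under GM-CSF, and the vesicles came from a single tumor line. Values are RPKM, read numbers scaled to the exon length of a gene in kilobases and to the mapped reads of the library. With 1 library per group there is no replicate spread and no test between treatments. The 95% intervals given for log2 ratios are exact Clopper-Pearson intervals of estimated reads and cover counting error only.

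These receptors signal by a few routes. Clec7a (Dectin-1), a receptor for fungal beta-glucan, carries its own tyrosine motif, whereas Clec4n (Dectin-2), Clec4e (Mincle), Clec4d (MCL) and Clec4b1 (DCAR) lean on the Fc receptor gamma chain encoded by Fcer1g, and Clec5a (MDL-1) on the adaptors DAP12 and DAP10. All of these converge on the kinase Syk and the Card9, Bcl10 and Malt1 complex upstream of NF-kB. Clec4a2 (DCIR1) and Clec12a (MICL) instead carry an inhibitory tyrosine motif that recruits the phosphatases encoded by Ptpn6 and Ptpn11. Clec4a1 (DCIR4) and Clec4a3 (DCIR3) resemble the inhibitory receptor in their lectin domain and lack that motif.

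Transcripts of 2 neighbouring genes, Clec4a3 and Clec4a1, were 58.4- and 47.3-fold more abundant with exosomes, while Clec7a was 3.09-fold less abundant and most of the other receptor genes moved little. Genes were kept at an RPKM of at least 0.25 in both libraries, and a change was called at a ratio of at least 2 in either direction. Of the 10 genes 9 were kept, and Clec4b1 missed the minimum in PBS. Of these 9, Clec4a1 and Clec4a3 were called up, beside 31.5% of all 9698 genes kept, and Clec7a was called down, beside 5.62%. The other 6 stayed within 2-fold, as did 62.9% of all genes kept. The median log2 ratio was 0.16 over the 9 genes and 0.53 over all genes kept. Since the values of this same comparison helped to choose the genes, nothing is read from these shares.

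**Figure D1:**
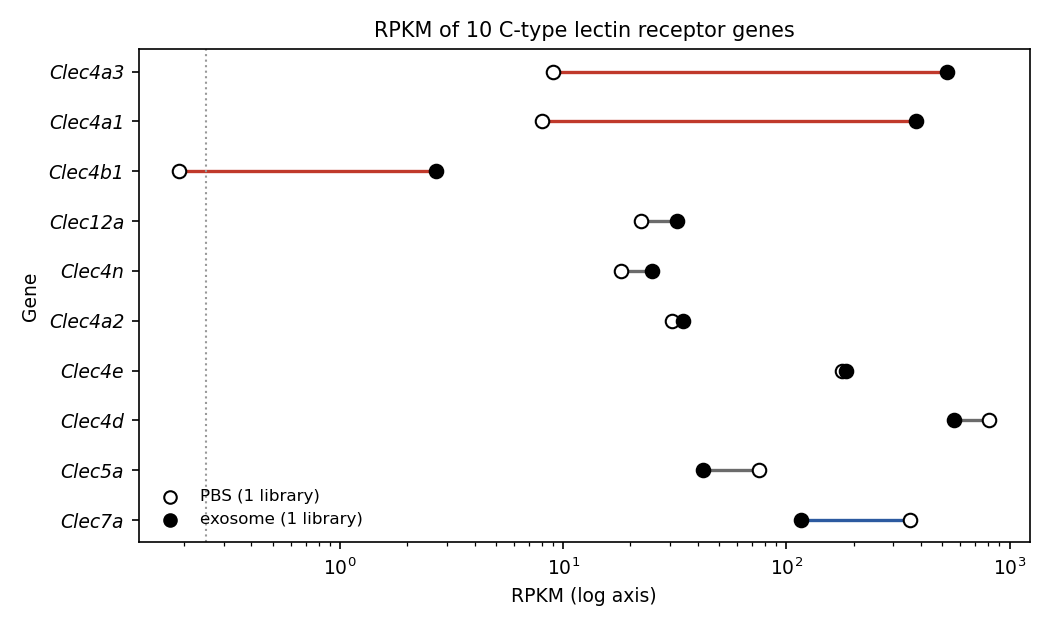
RPKM of the 10 receptor genes (vertical axis) on a log axis, with open circles for the PBS library and filled circles for the exosome library, 1 library each, joined by a red line where the exosome value was at least 2-fold higher, a blue line where it was at least 2-fold lower and a grey line otherwise. The dotted line marks the minimum of 0.25 RPKM. Clec4a3 and Clec4a1 ran from 8.96 and 8.06 to 522.89 and 381.47, Clec7a ran from 359.07 down to 116.25, and the circles of Clec4e nearly coincided.

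Clec4a1 and Clec4a3, the receptors without a known signalling motif, made up the larger part of the change. Clec4a3 stood at 8.96 RPKM in PBS and 522.89 RPKM in the exosome library. This is a 58.4-fold rise, a log2 ratio of 5.87 (95% counting interval 5.76 to 5.97), from about 768 reads to about 53792. Clec4a1 stood at 8.06 and 381.47 RPKM, a 47.3-fold rise with a log2 ratio of 5.56 (5.47 to 5.67), from about 828 reads to about 47032. In order of ratio they were numbers 4 and 6 from the top of the 9698 genes kept. Ratios of at least 10-fold up were found for 0.784% of these genes. By level Clec4a3 moved from rank 3845 to rank 56 of all features and Clec4a1 from 4053 to 94. The 2 genes together held 1.13% of the summed RPKM of the 10 receptors in PBS and 47.41% with exosomes.

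The genes lie side by side on chromosome 6, so their sequences bear on whether a read could be counted for the wrong copy. In coding sequence Clec4a1 and Clec4a3 were 71.6% identical, Clec4a3 and Clec4a2 75.9%, and the closest pair of the cluster, Clec4a4 and Clec4a2, 85.7%. The same 75-base stretch of the lectin domain coding sequence is printed for 5 of these genes (GENCODE M21, build GRCm38, + strand, exon 4 of Clec4a1, Clec4a4 and Clec4b1 and exon 5 of Clec4a3 and Clec4a2). Capitals mark bases that differ from Clec4a3, which number 12 in Clec4a1, 4 in Clec4a4, 9 in Clec4b1 and 8 in Clec4a2.
Clec4a3, chr6:122966498-122966572: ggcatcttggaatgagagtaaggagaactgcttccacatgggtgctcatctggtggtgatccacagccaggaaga
Clec4a1, chr6:122930750-122930824: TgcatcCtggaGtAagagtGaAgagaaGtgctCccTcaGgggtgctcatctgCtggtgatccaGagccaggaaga
Clec4a4, chr6:123012779-123012853: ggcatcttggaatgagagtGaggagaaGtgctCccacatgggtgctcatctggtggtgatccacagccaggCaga
Clec4b1, chr6:123068516-123068590: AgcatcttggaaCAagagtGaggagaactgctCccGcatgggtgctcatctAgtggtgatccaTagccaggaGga
Clec4a2, chr6:123139330-123139404: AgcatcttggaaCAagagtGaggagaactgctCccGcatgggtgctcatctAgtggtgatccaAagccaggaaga

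Even in this conserved stretch the genes that rose differed from each other at several bases. Over whole transcripts, 0 of the 1509 stretches of 50 bases in Clec4a1 and 0 of the 1326 in Clec4a3 occurred in another annotated gene. Clec4d, Clec4e, Clec5a, Clec7a and Clec12a shared 0 as well. Sharing was found for Clec4a4 (15.68% of its stretches, with Clec4a2), Clec4b1 (8.68%, with Clec4a2) and Clec4a2 (6.69%, mostly with these 2 genes), and Clec4n shared 0.83%. The values of Clec4a4, Clec4b1 and Clec4a2 are therefore less certain than the rest, since the rule the authors used for reads that match several genes is not given in the sources used here.

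Clec4b1, an activating receptor of the same cluster, was near the detection limit without exosomes. It stood at 0.19 RPKM in PBS, about 9 reads, and at 2.69 RPKM with exosomes, about 159 reads. The ratio was 14.2 and its log2 was 3.82 (2.92 to 5.04), but the PBS value lay under the minimum and the gene was not called. With a pseudocount of 1 the log2 ratio was 1.63.

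The other 3 receptors that use the Fc receptor gamma chain differed widely in abundance and stayed within 2-fold. Clec4d, the most abundant of the 10 genes in either library, stood at 811.24 RPKM in PBS and 564.71 with exosomes, 1.44-fold lower and within the 2-fold limit (log2 ratio −0.52, −0.54 to −0.51). Clec4e, whose product binds mycobacterial cord factor and pairs with MCL, stood at 178.25 and 185.73 RPKM, a log2 ratio of 0.06 (0.04 to 0.08). Clec4n, a mannan receptor, was much lower, at 18.13 and 25.04 RPKM with a log2 ratio of 0.47 (0.37 to 0.56). With Clec4b1 they summed to 1007.81 RPKM in PBS and 778.17 with exosomes, 66.66% and 40.79% of the 10 genes, and Clec4d was the only one of the 4 that was lower with exosomes.

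Clec7a was the receptor gene that fell. It stood at 359.07 RPKM in PBS and 116.25 with exosomes, 3.09-fold lower (log2 ratio −1.63, −1.65 to −1.60), and went from rank 111 to rank 433 among all features. Its share of the 10 genes was 23.75% in PBS and 6.09% with exosomes. Clec5a, the DAP12-coupled receptor, stood at 75 and 42.16 RPKM, 1.78-fold lower and within the limit (log2 ratio −0.83, −0.86 to −0.80).

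The inhibitory receptors Clec4a2 and Clec12a were of middle abundance and stayed within 2-fold. Clec4a2 stood at 30.6 RPKM in PBS and 34.25 with exosomes (log2 ratio 0.16, 0.11 to 0.22). Clec12a, which binds uric acid crystals, stood at 22.29 and 32.36 (0.54, 0.48 to 0.60). Together they made up 3.5% of the summed RPKM of the 10 genes in PBS and 3.49% with exosomes.

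The order of levels shifted accordingly. In PBS it ran Clec4d, Clec7a, Clec4e, Clec5a, Clec4a2, Clec12a, Clec4n, Clec4a3, Clec4a1 and Clec4b1, and with exosomes Clec4d, Clec4a3, Clec4a1, Clec4e, Clec7a, Clec5a, Clec4a2, Clec12a, Clec4n and Clec4b1. Clec4d and Clec4a3 were neighbours at the top of the exosome order, at 564.71 and 522.89 RPKM. Clec4a2 and Clec12a were neighbours there at 34.25 and 32.36. Without replicates, whether neighbours in this order differ cannot be judged. Clec4d, Clec4e and Clec7a together held 89.2% of the summed RPKM in PBS and 45.43% with exosomes. The sum over all 10 genes was 1511.79 RPKM in PBS and 1907.55 with exosomes, and without Clec4a1 and Clec4a3 it was 1494.77 and 1003.19.

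**Figure D2:**
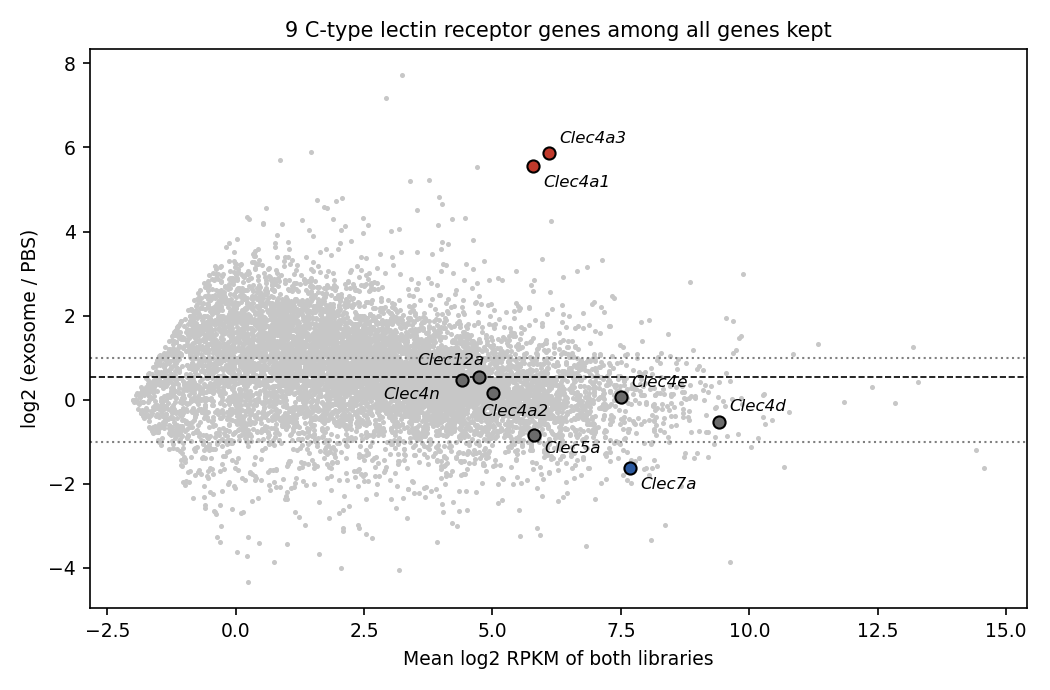
Log2 ratio of exosome to PBS RPKM (vertical axis) against the mean log2 RPKM of both libraries (horizontal axis) for the genes kept that carry a symbol (grey points), with the 9 receptor genes kept as large points, red at least 2-fold up, blue at least 2-fold down and dark grey otherwise. The dashed line is the median of all genes kept, 0.53, and dotted lines mark 2-fold. Clec4a3 and Clec4a1 lie far above the other genes of their level, Clec7a lies below the lower 2-fold line, and the rest lie within the main body of points.

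The ratio of a gene depended on its level across the whole table, which touches every gene of small change. Among the 1099 genes with a mean RPKM of 50 or more the median log2 ratio was 0.04, against 1.0 among the 2950 genes between 1 and 5. Clec4a1, Clec4a3, Clec4d, Clec4e, Clec5a and Clec7a belong to the former group. Clec4a2, Clec4n and Clec12a lie between 10 and 50 RPKM, where the median was 0.31. When the median of all genes was set to 0, which moves every log2 ratio by 0.53, Clec4a1 and Clec4a3 stayed at 5.04 and 5.34 and Clec7a went to −2.15. Clec4d and Clec5a then crossed the 2-fold limit, at −1.05 and −1.36, which made 3 receptor genes down and 2 up, beside 13.2% of all genes kept down and 16.8% up. Removing a trimmed mean of the log ratios gave the same 3 and 2, beside 13.6% and 16.4%. Centring each gene on genes of like mean RPKM gave 1 down and 2 up, beside 13.4% and 14.0%. At a ratio of at least 4, Clec4a1 and Clec4a3 were up, beside 8.52% of genes kept, and 0 receptor genes were down, beside 1.14%. The sign depended on the scaling for Clec4a2, Clec4e, Clec4n and Clec12a, whose log2 ratios ranged from −0.38 to 0.21, −0.48 to 0.11, −0.08 to 0.51 and −0.0036 to 0.59 over the alternatives.

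**Figure D3:**
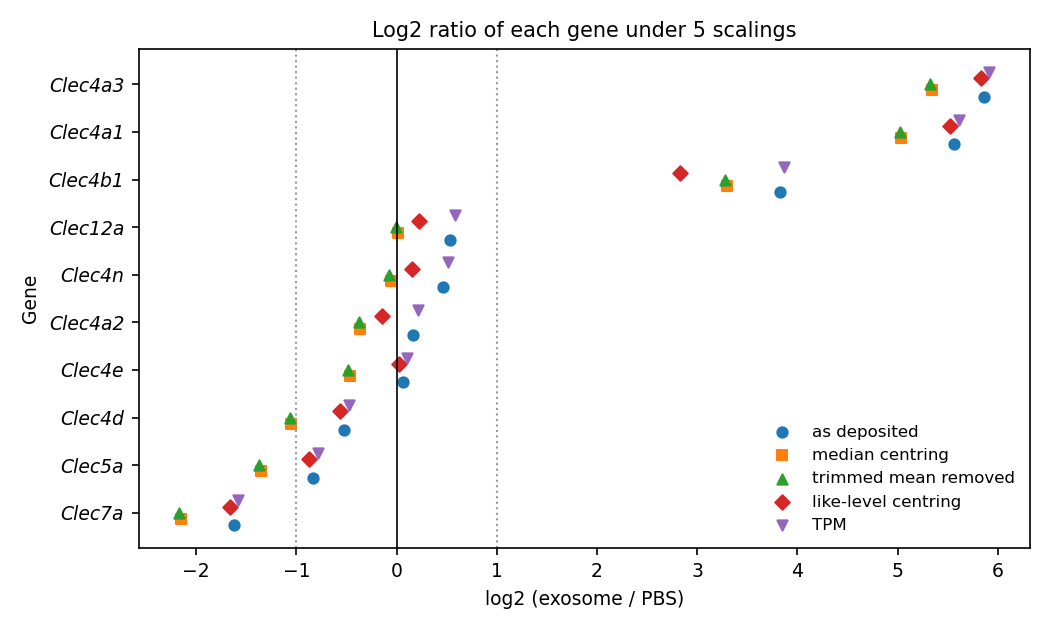
Log2 ratio of exosome to PBS (horizontal axis) of the 10 receptor genes (vertical axis) as deposited and under 4 other scalings, each with its own symbol. Dotted lines mark 2-fold. Clec4a3, Clec4a1 and Clec4b1 stay to the right of 1 and Clec7a to the left of −1 under each scaling shown, whereas the genes from Clec12a to Clec4e lie on or near 0 and Clec4d and Clec5a pass −1 under centring on the median or on the trimmed mean only.

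Of the 10 genes 7 lie in the Clec4 gene cluster, 368 kb of chromosome 6 (chr6:122921848-123289871, GRCm38). Another 2 lie in the Dectin-1 cluster, which is 123 kb long and lies at higher coordinates (chr6:129349783-129472785). From lower to higher coordinates the former holds Clec4a1 (chr6:122921848-122934619), Clec4a3 (chr6:122952515-122969875), Clec4b1 (chr6:123049962-123071555), Clec4a2 (chr6:123106428-123143999), Clec4n (chr6:123229843-123247021) and Clec4d (chr6:123262111-123275265) on the + strand and Clec4e (chr6:123281789-123289870) on the − strand. The latter holds Clec12a (chr6:129342691-129365303, + strand) and Clec7a (chr6:129461591-129472779, − strand). Clec5a lies alone at chr6:40574894-40585821 on the − strand. These gene bounds are those of GENCODE M21, and the clusters are bounded by RefSeq. In the Clec4 cluster the ratios differed between its ends. At the end of lower coordinates, 6 consecutive features from C3ar1 to Clec4b1 (chr6:122847140-123071555, 224 kb) were all higher with exosomes. Of them 5 were called up, beside 31.5% of all genes kept. C3ar1, the receptor of the complement peptide C3a, stood at 0.63 RPKM in PBS and 90.73 with exosomes, a log2 ratio of 7.17 (6.96 to 7.39). Necap1, an adaptor of clathrin-mediated endocytosis, stood at 20.45 and 50.41, a 2.47-fold rise. Clec4a4 (DCIR2), an inhibitory receptor, rose from 1.29 to 17.65 RPKM, a log2 ratio of 3.77 (3.42 to 4.16). The ends of this stretch were set after the values were seen.

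At the other end, 5 receptor genes from Clec4a2 to Clec4e ranged from −0.76 to 0.47 in log2 ratio as deposited. Over all scalings they ranged from −1.76 to 0.51. The lowest of these was Clec4b2 (DCAR1), at 1.29 RPKM in PBS and 0.76 with exosomes (−0.76, −1.22 to −0.30). The pseudogene Gm5883 between them was at 0 in both libraries. Beyond Clec4e, 5 features of a vomeronasal receptor family region were at 0 in both. On the outer side of C3ar1, Foxj2 stood at 24.66 and 27.66 RPKM and Slc2a3, a glucose transporter gene, fell from 275.42 to 69.56. When the median of all genes was set to 0, Necap1 dropped to 0.78 and was no longer called. C3ar1, Clec4a1, Clec4a3 and Clec4a4 stayed above 2-fold under each scaling. Clec4b2 passed 2-fold down at −1.29 under median centring and −1.30 with the trimmed mean removed. Against genes of like level it was at −1.76.

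**Figure D4:**
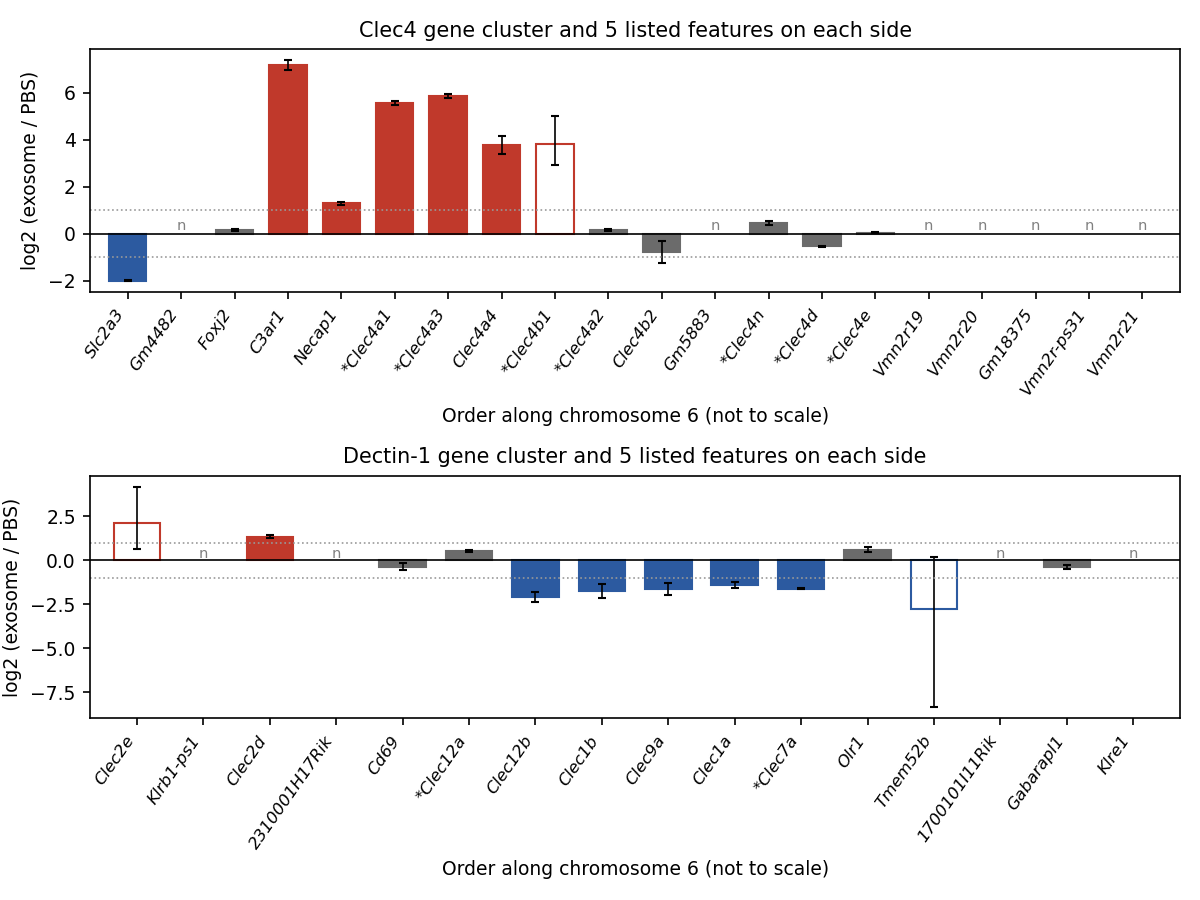
Log2 ratio of exosome to PBS for features in their order along chromosome 6 (horizontal axis, not to scale), in the Clec4 cluster (top) and the Dectin-1 cluster (bottom) with 5 listed features on each side. Asterisks mark the receptor genes described here, red bars are at least 2-fold up, blue at least 2-fold down, grey within 2-fold, open bars failed the minimum of 0.25 RPKM, n marks a feature at 0 in at least 1 library, and error bars are 95% counting intervals. Bars from C3ar1 to Clec4b1 are tall (1.30 to 7.17), and those from Clec12b to Clec7a all point down (−2.10 to −1.40).

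In the Dectin-1 cluster, 5 consecutive genes from Clec12b to Clec7a (chr6:129375513-129472785, 97 kb) fell together. All 5 were called down, beside 5.62% of all genes kept. Clec12b, a relative of Clec12a, stood at 4.36 RPKM in PBS and 1.02 with exosomes, 4.27-fold lower (log2 ratio −2.10, −2.39 to −1.80). Clec1b (CLEC-2), the podoplanin receptor of platelets, stood at 2.81 and 0.85 (−1.73, −2.14 to −1.34), and Clec9a, which binds actin exposed on dead cells, at 1.28 and 0.41 (−1.64, −1.98 to −1.31). Clec1a stood at 2.3 and 0.87 (−1.40, −1.59 to −1.22). These 4 were expressed at a small fraction of the level of Clec7a. All 5 stayed at least 2-fold down under each of the other scalings, between −3.10 and −1.35. The 4 low genes depended on the minimum: at 1 RPKM in both libraries Clec12b alone of these 4 was still kept and down, and with a pseudocount of 1 Clec12b and Clec1b were down while Clec9a and Clec1a were not. In the RefSeq annotation a long form of Clec12b runs across Clec1b and Clec9a, which lie on the opposite strand. Its bounds also overlap those of Clec1a, on the same strand. The standard mRNA kit does not mark strand, so reads of overlapping exons cannot be assigned with certainty. The ends of this stretch were again set after the values were seen.

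As deposited, genes just outside it did not follow. Clec12a lay within the limit, Olr1 (LOX-1, a receptor of oxidised low-density lipoprotein) stood at 3.28 and 5.01 RPKM (log2 ratio 0.61), Cd69 at 3.62 and 2.8 (−0.37) and Gabarapl1 at 11.0 and 8.35 (−0.40). Centring on genes of like mean RPKM took Cd69 to −1.37 and Gabarapl1 to −1.07, both past 2-fold down, and Olr1 to −0.39. Clec2d rose from 40.46 to 103.32 RPKM (1.35). Centring on the median took it to 0.83, and centring on genes of like mean RPKM to 1.31. Around Clec5a, Mgam, a maltase-glucoamylase gene, fell from 31.2 to 7.15 RPKM (−2.13), and the other 9 features listed there were at or below 0.11 RPKM in both libraries. Among all 33 features whose symbol begins with Clec, 18 were kept. Of these, 4 were up and 5 were down, beside 31.5% and 5.62% of all genes kept. Leaving out the 10 receptor genes, 9 were kept, of which 2 were up and 4 down, beside the same shares, with a median log2 ratio of −0.76.

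To set the genes that moved beside each other in sequence, the 250 bases before the annotated start are printed for Clec4a1, Clec4a3 and Clec4b1, whose transcripts were more abundant with exosomes, and for Clec7a, whose transcripts fell (RefSeq, build GRCm38.p6, each read 5′ to 3′ on the strand of the gene). Capitals mark GAGGAA or its reverse complement, the core recognised by PU.1, a transcription factor that myeloid cells require.
Clec4a1, chr6:122921598-122921847, + strand: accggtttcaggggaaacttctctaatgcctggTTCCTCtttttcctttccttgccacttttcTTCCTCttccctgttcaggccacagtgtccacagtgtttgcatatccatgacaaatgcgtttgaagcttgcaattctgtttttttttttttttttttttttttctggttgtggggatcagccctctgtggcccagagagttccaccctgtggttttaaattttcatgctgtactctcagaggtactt
Clec4a3, chr6:122952265-122952514, + strand: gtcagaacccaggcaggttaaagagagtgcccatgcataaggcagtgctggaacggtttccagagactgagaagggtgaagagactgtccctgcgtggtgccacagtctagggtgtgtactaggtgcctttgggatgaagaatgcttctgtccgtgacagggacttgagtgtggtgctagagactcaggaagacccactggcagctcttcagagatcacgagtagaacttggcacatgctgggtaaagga
Clec4b1, chr6:123049712-123049961, + strand: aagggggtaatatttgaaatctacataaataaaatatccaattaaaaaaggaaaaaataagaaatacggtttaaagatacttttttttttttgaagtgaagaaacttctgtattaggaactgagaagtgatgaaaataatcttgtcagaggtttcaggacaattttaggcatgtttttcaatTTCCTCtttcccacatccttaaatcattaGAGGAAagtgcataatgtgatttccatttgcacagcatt
Clec7a, chr6:129472786-129473035, - strand: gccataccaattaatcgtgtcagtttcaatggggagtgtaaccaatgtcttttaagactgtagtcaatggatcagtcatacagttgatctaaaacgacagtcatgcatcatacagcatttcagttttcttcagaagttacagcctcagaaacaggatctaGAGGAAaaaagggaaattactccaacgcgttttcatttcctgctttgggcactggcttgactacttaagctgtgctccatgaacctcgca

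The core lay 217 and 187 bases before the start in Clec4a1, 68 and 39 bases before it in Clec4b1 and 90 bases before it in Clec7a. The window shown for Clec4a3 had 0, and that of its alternative start had 1, 50 bases before the start. Of the 9 receptor genes with a window in the reference table, 8 (88.89%) held the core, Clec4a2 being without it. It was found for 26.73% of the genes kept and for 28.25% of genes with at least 10 RPKM in PBS. A match is a string of letters and not a bound site.

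Of 5 other motifs searched on both strands, few matched. The C/EBP letters TTGCNNAA, present in 9.56% of all windows, occurred in Clec4e and Clec12a, and the AP-1 letters TGANTCA, in 6.75%, in Clec12a. The STAT letters TTCNNNGAA, in 7.02% of windows, occurred in Clec4a2, and an interferon response motif, in 2.98%, in Clec4b1. An NF-kB motif, in 1.41%, occurred in none of the receptor genes.

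The adaptors and kinases on which these receptors depend were abundant and mostly steady. Of the 27 genes listed, all were kept, 5 were up and 0 were down, beside 31.5% and 5.62% of all genes kept, with a median log2 ratio of 0.18 against 0.53. Under median centring 1 was up and 2 were down, and with the trimmed mean removed 1 was up and 3 were down. Against genes of like level 3 were up and 1 was down. Fcer1g, the gamma chain gene, stood at 538.25 RPKM in PBS and 1489.47 with exosomes, a 2.77-fold rise (log2 ratio 1.47, 1.45 to 1.49). Centring on the median took it to 0.94, under the limit, and centring on genes of like mean RPKM to 1.43, past the limit. Tyrobp, which encodes DAP12, stood at 1935.56 and 1571.41 (−0.30), and Hcst, which encodes DAP10, at 75.95 and 74.67 (−0.02). Of the 4 receptors that use the gamma chain, Clec4e, Clec4n and Clec4b1 were higher with exosomes and Clec4d was lower.

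Syk stood at 200.46 and 315.23 RPKM, a log2 ratio of 0.65, within the limit. The same held downstream of it for Card9 at 53.49 and 51.23 (−0.06), Bcl10 at 164.19 and 98.32 (−0.74), Malt1 at 21.77 and 29.0 (0.41) and Plcg2, a phospholipase that raises calcium, at 69.06 and 57.62 (−0.26). Map3k7, a kinase upstream of NF-kB, rose from 5.43 to 13.73 (1.34) and the calcium-dependent transcription factor gene Nfatc2 from 0.47 to 4.3 (3.19). Rubcn, listed as 1700021K19Rik, was also up, at 1.82 and 3.99 RPKM (1.13). Under median centring Map3k7 and Rubcn dropped to 0.81 and 0.61, inside the limit, and Nfatc2 stayed past it at 2.67.

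Of the 9 inhibitory phosphatase and adaptor genes, all were kept, 3 were up and 1 was down, beside the same 31.5% and 5.62%, with a median log2 ratio of 0.33. Under median centring, and with the trimmed mean removed, 1 was up and 1 was down. Ptpn6, which encodes SHP-1, stood at 278.66 and 546.4 RPKM, just inside the limit at 0.97. Ptpn11, which encodes SHP-2, stood at 11.13 and 22.27 and was just past it at 1.0006, so the limit alone sets them apart. Inpp5d, which encodes the lipid phosphatase SHIP-1, stood at 81.53 and 74.61 (−0.13). Dok2, an adaptor that dampens kinase signalling, rose from 2.85 to 18.17 (2.67), Cblb passed the limit at 0.64 and 1.35, and Dusp1, a phosphatase of MAP kinases, fell from 253.96 to 123.84 (−1.04).

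Of 16 cytokine and early response genes that Syk and Card9 signalling is known to induce, 12 were kept, 5 were up and 0 were down, beside 31.5% and 5.62% of all genes kept, with a median log2 ratio of 0.62 against 0.53. Under median centring, and with the trimmed mean removed, 4 were up and 1 was down. Against genes of like level 5 were up and 0 were down. Il12a, which encodes a subunit of interleukin-12, rose 22.7-fold, from 2.44 to 55.32 RPKM (4.50, 4.30 to 4.71). The transcription factor gene Egr3 rose from 1.71 to 15.53 (3.18) and Csf3, which encodes G-CSF, from 4.07 to 18.07 (2.15). Tnf rose from 72.08 to 225.1 (1.64) and Il1b from 1268.17 to 2678.41 (1.08). Il1b dropped to 0.55 under median centring and 0.54 with the trimmed mean removed, inside the limit. Against genes of like level it stayed past the limit at 1.04, as it did when rescaled to TPM, at 1.13. Il6, Il12b, Il23a and Csf2 were not kept. Many other receptors induce the same genes, and no receptor was blocked in these cultures.

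Other genes listed for a C-type lectin domain or a Clec symbol were mostly below the minimum in these cells. Of 52 listed genes found in the tables, 15 were at 0 in both libraries and 12 were kept. Of these 12, 3 were up and 5 were down, beside 31.5% and 5.62% of all genes kept, with a median log2 ratio of −0.67 against 0.53. Cd302, an endocytic receptor, rose 28.1-fold, from 2.93 to 82.38 RPKM (4.81, 4.63 to 4.99), and Colec12, a scavenger receptor, from 0.25 to 1.7 (2.77). Klra17, of the Ly49 family, fell from 83.34 to 15.92 (−2.39). Cd93 fell from 27.57 to 9.2 (−1.58). In the Dectin-1 cluster region, Klrb1b was at 0.06 RPKM in PBS, about 9 reads, and 3.57 with exosomes, and it was not kept. The 8 kept of 11 other genes listed for that region had a median of −0.92, with 1 up and 4 down, beside the same 31.5% and 5.62%.

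**Figure D5:**
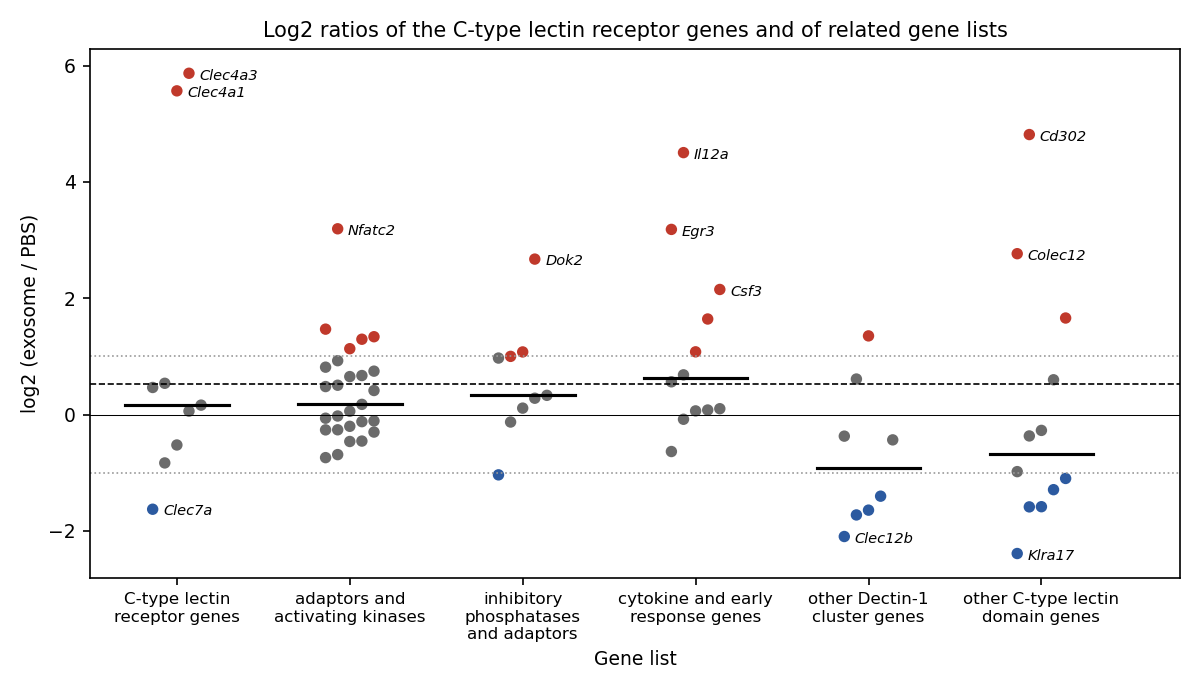
Log2 ratio of exosome to PBS (vertical axis) of the kept genes of each list (horizontal axis), 1 point per gene, red at least 2-fold up, blue at least 2-fold down and grey within 2-fold. Short black bars are list medians (0.16, 0.18, 0.33, 0.62, −0.92 and −0.67 from left to right), the dashed line is the median of all genes kept, 0.53, and dotted lines mark 2-fold.

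By level alone, the features nearest to Clec4a3 over the 2 libraries were Clec4a1 at a distance of 0.48 in log2 RPKM, Saa3 at 1.14 (16.16 and 308.34 RPKM) and Ikbke at 1.80 (19.58 and 197.93). Nearest to Clec7a were Zfp36l2 at 0.05 (353.97 and 112.63), Cd33 at 0.14 (339.75 and 125.74) and Cd24a at 0.19 (362.96 and 132.51). Clec4a3 thus had few features of like values, and Clec7a had close ones.

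Markers of cell types moved between the libraries as well. Of 14 neutrophil markers, all kept, 10 were down and 1 was up, beside 5.62% and 31.5% of all genes kept. Their summed RPKM was 84598.18 in PBS and 30476.61 with exosomes. S100a8 and S100a9 headed both sums, and Ly6g, whose product was used for the sort, fell from 286.96 to 56.19. Of 17 monocyte and macrophage markers, 15 were higher with exosomes, 10 were kept and 7 of these were up, beside 31.5% of all genes kept. The sum was 6376.82 and 15126.87 RPKM, mostly Lyz2. Emr1, which encodes F4/80, rose from 20.91 to 151.51, Csf1r from 58.1 to 152.64 and Ms4a7 from 1.02 to 16.79, whereas Timd4 was at 0 in both. Emr1, Csf1r and Ms4a7 were thus detected in PBS too. Under median centring the log2 ratios of Csf1r and Lyz2 dropped to 0.87 and 0.72, inside the limit. Those of Emr1 and Ms4a7 stayed past it, at 2.33 and 3.51. Against genes of like level, Csf1r and Lyz2 were past the limit too, at 1.36 and 1.21. Clec4a1, Clec4a3, Clec4a4, C3ar1 and Cd302 moved in the direction of most monocyte and macrophage markers, and Clec7a in that of most neutrophil markers. Clec5a and Clec4d were also lower, within 2-fold (−0.83 and −0.52). Of the 10 receptor genes 7 were higher with exosomes and 3 lower. Elane, Mpo and Prtn3 of the neutrophil list were higher (0.33, 0.62 and 1.35). The part of these markers in the changes of the receptor genes was not tested. In bulk RNA, fewer cells of a type and less RNA per cell cannot be told apart.

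The remaining marker lists were low or lower with exosomes. Summed RPKM was 156.82 in PBS and 108.46 with exosomes for 11 dendritic cell markers, 10.94 and 5.44 for 6 eosinophil markers, 2.3 and 2.4 for 6 basophil and mast cell markers, 108.12 and 66.87 for 5 B cell markers, and 57.96 and 7.36 for 6 T and NK cell markers, nearly all of it Cd3d. The 6 epithelial tumor cell markers summed to 0.61 and 0.21 RPKM, with Krt8 at 0 in both. Estimated from the smallest values, the PBS library held 65.96 M reads (M for mega) and the exosome library 79.13 M, 1.2 times as many.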

How the data were processed

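RNA of PBS-treated and exosome-treated mouse neutrophils, 1 TruSeq mRNA library each, was sequenced on an Illumina HiSeq system. The authors trimmed reads below a Phred score of 20 and used CLC Genomics Workbench to obtain the deposited RPKM, 1 value per feature (build mm10 per the labels). The annotation, the rule for reads matching several genes and any scaling between libraries are not given in the sources used here. In 25 features a spreadsheet had turned the symbol into a date number, and these stayed in all counts.

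Ratios are exosome over PBS RPKM without a pseudocount, for genes of at least 0.25 RPKM in both libraries, and a call needs a ratio of at least 2 or at most 0.5, as in the study. Depth was estimated from RPKM below 0.01 that stand for 1 read and from GENCODE M21 transcript lengths. These estimated reads gave exact Clopper-Pearson 95% intervals, and scripts were tested on simulated reads. Alternatives were median centring, subtraction of the trimmed mean log ratio, centring on genes of like mean RPKM, rescaling to TPM, other minimums and pseudocounts, and a ratio of at least 4. Lists matched by symbol, or by synonym for Rubcn (1700021K19Rik), Adgre1 (Emr1), Siglecf (Siglec5) and Clec2f (Clec2f-ps). Clec6a (a synonym of Clec4n), Clec17a and Attrn were left out. Named were the receptor genes, their adaptors, cluster relatives and neighbours, the 3 features nearest in level, and list genes past 4-fold with at least 1 RPKM in either library. A few list genes past 2-fold were named after their values were seen. The genes and lists were chosen with earlier results of these data known. Python 3.11.15, pandas 2.3.3, SciPy 1.17.1 and Biopython 1.88 were used.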

Additional observations from a re-analysis of the deposited data

How the results depend on the processing

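Both Clec4a1 and Clec4a3 were called up under all 8 alternatives, with log2 ratios of 5.02 to 5.61 and 5.33 to 5.91, and Clec7a stayed between −2.17 and −1.58. The count of receptor genes down was 3 under median centring and under removal of the trimmed mean, where Clec4d and Clec5a joined Clec7a, and 0 at the 4-fold limit. The count up became 3 with a minimum in either library and a pseudocount of 0.25, which admits Clec4b1. Signs turned for Clec4a2 (−0.36 under median centring, −0.38 with the trimmed mean removed, −0.15 against genes of like level), Clec4e (−0.47 and −0.48 under the former 2 settings), Clec4n (−0.0605 and −0.0756) and Clec12a (−0.0036 with the trimmed mean removed). In all, 61 of 69 recomputed log2 ratios of these genes kept their direction and 8 turned. The 8 that turned did so under the 3 centrings. The range of Clec4b1, 1.63 to 3.87, was set at its low end by the pseudocount of 1.

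Over all genes kept, 3056 up and 545 down became 1634 and 1282 under median centring, 1594 and 1322 with the trimmed mean removed, and 1353 and 1301 against genes of like level. Up calls were 1958 with a minimum of 1 RPKM and 1976 with a pseudocount of 1. The 4-fold limit left 826 up and 111 down. Over the pathway and lectin lists together (117 genes, 70 kept), 18 up and 10 down became 10 up under median centring, 10 up and 16 down with the trimmed mean removed, 17 down against genes of like level, 6 down with a minimum of 1 RPKM, and 8 up and 2 down at the 4-fold limit. Of 96 counts for single lists, 63 stayed within 1.5 times. Depth limits Clec4b1 alone among the 10 genes, at about 9 reads in PBS. No paired analysis was possible because each group holds 1 library.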
